A study of Mus musculus with 8 samples.

Results

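Cyclin-dependent kinase inhibitors, the retinoblastoma protein and lamin B1 were followed across the 8 arrays of a series on Irf7 in mouse mesenchymal stromal cells. The genes were chosen by symbol from a list of 10, namely Cdkn1a, Cdkn1b, Cdkn1c, Cdkn2a, Cdkn2b, Cdkn2c, Cdkn2d, Rb1, Trp53 and Lmnb1, with earlier results of these data known. Of these, 9 had a probe set in the probe annotation, 1 each, among 19505 named genes. Trp53 is not analysed here.

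The cells were mesenchymal stromal cells of the inguinal fat pad of male FVB mice aged 12 months, and all 3 groups carried the lentiviral vector pLKO.1. It encoded a hairpin against IRF7 in the shIRF7 group (4 arrays), a scrambled hairpin in the scramble group (2 arrays), and nothing further in the empty vector group (2 arrays). The labels do not say how many hairpin sequences against IRF7 were used. They give no source of the replicates (culture, animal or infection), so p-values here reflect only how these arrays vary, and part of that variation may be technical. RNA of whole cell populations was hybridised to Affymetrix arrays, so that fewer cells with a transcript and less transcript per cell cannot be told apart.

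Cyclin-dependent kinase inhibitors stop the cell cycle before DNA replication. The Cip/Kip proteins (Cdkn1a, Cdkn1b, Cdkn1c) bind complexes of cyclins with their kinases, while the Ink4 proteins (Cdkn2a to Cdkn2d) bind Cdk4 and Cdk6 and keep the D-type cyclins from activating them. Either way the retinoblastoma protein stays unphosphorylated and holds E2F factors inactive. Stromal cells that enter senescence, a lasting arrest, typically raise Cdkn1a and Cdkn2a and lose lamin B1, a filament protein of the nuclear envelope. Transcripts of proliferating cells, among them Mki67, which encodes the Ki-67 antigen of cycling cells, are low in such cells.

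Deposited values are log2 RMA values. The 95th percentile of the 5222 negative control probe sets of an array, used here as background, ran from 7.93 to 8.72 over the 8 arrays. Of the named probe sets of an array, 31.6% to 36.7% exceeded it. Irf7, the targeted gene, had log2 values of 4.42, 5.66, 6.47 and 6.79 in shIRF7 replicates 1 to 4, against 9.56 and 9.76 in scramble and 9.55 and 9.61 in empty vector, with no overlap between shIRF7 and the controls (log2 difference -3.79, SE 0.48, limma adjusted p = 0.0692; exact permutation p = 0.0286, the smallest that 4 against 4 arrays allow). All 4 of these shIRF7 values lay below background. Of the stromal markers, 6 of 8 averaged above background. The mean log2 value of all 8 was 12.2 to 12.4 on the shIRF7 arrays and 12.9 to 13.2 on the control arrays. Their lowest limma adjusted p in shIRF7 against both controls was 0.187, so none passed 0.05. Of the macrophage (6 genes), endothelial (5), adipocyte (5), lymphocyte (5) and epithelial (5) markers measured, 0 averaged above background, and the mean log2 value of each list stayed between 3.54 and 4.75 on the shIRF7 arrays and between 3.67 and 4.51 on the controls. The closest arrays were shIRF7 replicates 2 and 3 (SD of their difference over genes 0.322) and the replicates 2 of scramble and empty vector (0.325).

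No member passed the test between shIRF7 and the controls, in either direction. In limma, with each group as a term and Benjamini-Hochberg adjustment over all genes (threshold 0.05), 0 of 9 members were called in shIRF7 against the mean of both controls, where 0.0308% of all genes were called (6 of 19505). Their adjusted p-values ran from 0.517 to 0.98, and 1 of 9, Rb1, had an unadjusted limma p under 0.05 (0.0204), as had 8.12% of all genes. The median log2 difference was 0.07 over the 9 members and 0.0017 over all genes, with 5 positive and 4 negative. The counts were likewise 0 of 9 in shIRF7 against scramble (0.00513% of all genes called), in shIRF7 against empty vector (0%) and in scramble against empty vector (0%). At an unadjusted limma p under 0.05 these comparisons held 0 members (6.14% of all genes), 1 member, Rb1 (5.84%), and 0 members (1.93%). The comparisons that involve shIRF7 share its 4 arrays. A p above the threshold does not show that a member did not differ, and the intervals below give what the arrays leave possible.

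**Figure D1:**
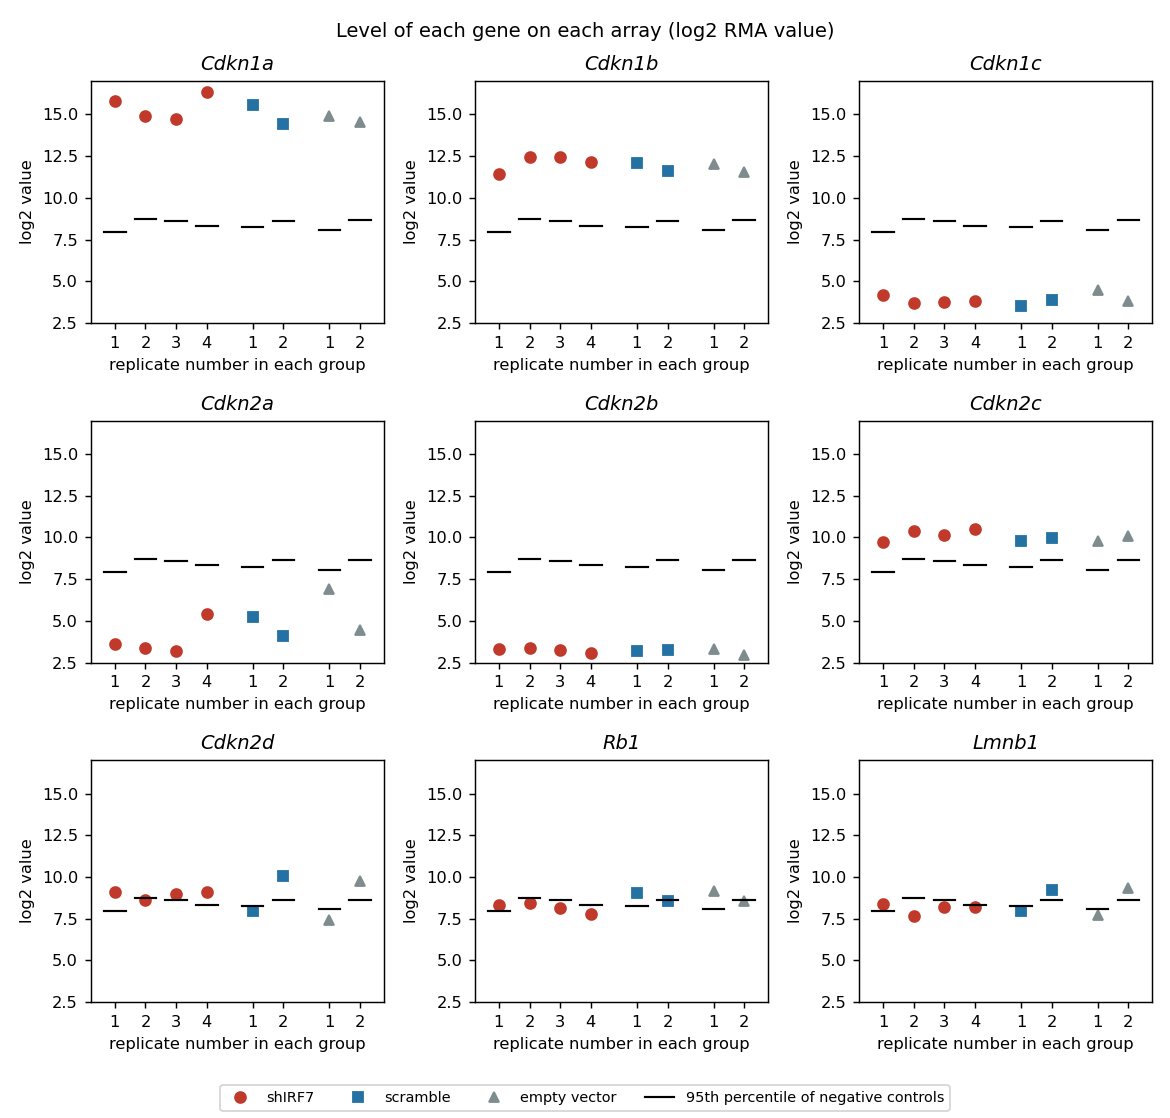
Log2 RMA value (vertical axis) of each of the 9 measured genes on each array, 1 point per array, with shIRF7 left of scramble and empty vector and the replicate number below. Black bars are the 95th percentile of the negative controls of that array: Cdkn1a, Cdkn1b and Cdkn2c lay above it on all 8 arrays, Cdkn1c, Cdkn2a and Cdkn2b on 0, and Cdkn2d, Rb1 and Lmnb1 straddled it.

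Among the Cip/Kip genes, Cdkn1a encodes p21, the inhibitor through which p53 arrests cells. Cdkn1a had log2 values of 15.82, 14.92, 14.71 and 16.33 in shIRF7 replicates 1 to 4, against 15.55 and 14.45 in scramble and 14.93 and 14.55 in empty vector. The highest 2 arrays, shIRF7 replicates 4 and 1, were followed by scramble replicate 1, and the groups overlapped. The means were 15.4 ± 0.76 in shIRF7 and 14.9 ± 0.50 in the controls (SD, n = 4 each), and their log2 difference was 0.58 (SE 0.41, 95% interval -0.38 to 1.54, limma adjusted p = 0.803). Taken by replicate number, shIRF7 was above the mean of the controls by 0.58 (replicate 1) and 0.43 (replicate 2). The labels do not say whether equal numbers pair shIRF7 arrays with controls, and they were not treated as pairs. Differences by number, here and below, use shIRF7 replicates 1 and 2 only and are descriptions of single arrays.

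Cdkn1b encodes p27, which holds cells in quiescence and is removed by the ubiquitin ligase subunit Skp2 as cells enter the cycle. Cdkn1b had log2 values of 11.41, 12.43, 12.45 and 12.14 in shIRF7 replicates 1 to 4, against 12.07 and 11.60 in scramble and 12.03 and 11.55 in empty vector. The groups overlapped, with shIRF7 replicate 1 lowest of all and shIRF7 replicates 2 and 3 highest. The log2 difference was 0.30 (SE 0.27, 95% interval -0.34 to 0.93, limma adjusted p = 0.86), or by replicate number -0.64 (replicate 1) and 0.85 (replicate 2). Cdkn1c, an imprinted gene for p57 that limits growth of embryonic tissues, lay between 3.72 and 4.19 in shIRF7 and between 3.54 and 4.48 in the controls. These values sat between the 29.3th and 56.6th percentile of the negative controls, so no level above background was measured on any array.

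Of the Ink4 genes, Cdkn2a is the locus most used as a mark of senescence. It holds separate promoters for p16Ink4a and for Arf, a protein that stabilises p53, and both transcripts share later exons. The probe set is annotated to both RefSeq transcripts, so the transcripts cannot be told apart. Cdkn2a had log2 values of 3.60, 3.37, 3.20 and 5.38 in shIRF7 replicates 1 to 4, against 5.24 and 4.10 in scramble and 6.93 and 4.43 in empty vector. The 3 lowest arrays were shIRF7 replicates 1 to 3, but shIRF7 replicate 4 exceeded 3 of 4 control arrays. The log2 difference was -1.28 (SE 0.68, 95% interval -2.86 to 0.29, limma adjusted p = 0.707; exact permutation p = 0.2), with -0.78 (SE 0.83) against scramble and -1.79 (SE 0.83) against empty vector. Taken by replicate number it was -2.48 (replicate 1) and -0.90 (replicate 2). Cdkn2a was above background on 0 of 8 arrays, its highest value (empty vector replicate 1) reaching the 90.3rd percentile of the negative controls, and no fold is given. Without shIRF7 replicate 4 the log2 difference was -1.78, and without empty vector replicate 1 it was -0.66.

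The other Ink4 genes are neighbours or relatives of Cdkn2a. Cdkn2b, which lies beside it and encodes p15, a target of TGF-beta signalling, lay between 3.09 and 3.35 in shIRF7 and between 2.97 and 3.29 in the controls, between the 11.5th and 24.8th percentile of the negative controls. Cdkn2c encodes p18. Its log2 values were 9.69, 10.36, 10.13 and 10.52 in shIRF7 replicates 1 to 4, against 9.76 and 9.97 in scramble and 9.80 and 10.05 in empty vector. The groups overlapped, with shIRF7 holding both the lowest array (replicate 1) and the 3 highest (replicates 4, 2 and 3). The log2 difference was 0.28 (SE 0.20, 95% interval -0.19 to 0.76, limma adjusted p = 0.807). By replicate number it was -0.08 (replicate 1) and 0.34 (replicate 2).

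Cdkn2d encodes p19Ink4d, whose transcript is known to oscillate with the cell cycle. Cdkn2d had log2 values of 9.10, 8.62, 8.99 and 9.12 in shIRF7 replicates 1 to 4, against 7.98 and 10.07 in scramble and 7.40 and 9.79 in empty vector. All 4 shIRF7 arrays lay inside the span of the controls, where replicate 2 of each control was high and replicate 1 low. The means were 8.96 ± 0.24 in shIRF7 and 8.81 ± 1.32 in the controls (SD, n = 4 each), and their log2 difference was 0.15 (SE 0.59, 95% interval -1.23 to 1.52, limma adjusted p = 0.979). By replicate number it was 1.41 (replicate 1) and -1.31 (replicate 2). Cdkn2d exceeded background on 3 of 4 shIRF7 arrays and 2 of 4 control arrays.

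Rb1 encodes the retinoblastoma protein itself. Its log2 values were 8.34, 8.46, 8.13 and 7.78 in shIRF7 replicates 1 to 4, against 9.03 and 8.58 in scramble and 9.15 and 8.54 in empty vector. Rb1 was the 1 member whose groups did not overlap, all 4 shIRF7 values lying below all 4 controls, as did those of 2.8% of all genes (547 of 19505). For 0 of 9 members did all shIRF7 values lie above all controls, as for 2.58% of all genes. The highest shIRF7 value and the lowest control value were 8.46 and 8.54. The means were 8.18 ± 0.30 in shIRF7 and 8.83 ± 0.31 in the controls (SD, n = 4 each), and their log2 difference was -0.65 (SE 0.22, 95% interval -1.17 to -0.13), with a limma adjusted p of 0.517 and an exact permutation p of 0.0286, the smallest possible. It measured -0.63 (SE 0.27) against scramble and -0.67 (SE 0.27) against empty vector, or by replicate number -0.75 (replicate 1) and -0.10 (replicate 2). Rb1 was above background on 1 of 4 shIRF7 arrays and 2 of 4 control arrays. Of its relatives, Rbl1 (p107) differed by -0.09 (SE 0.67, limma adjusted p = 0.988) and Rbl2 (p130, a pocket protein of quiescent cells) by -0.44 (SE 0.52, limma adjusted p = 0.905).

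Lmnb1 encodes lamin B1. Its log2 values were 8.37, 7.63, 8.22 and 8.19 in shIRF7 replicates 1 to 4, against 7.96 and 9.22 in scramble and 7.74 and 9.32 in empty vector. The 2 highest arrays were the replicates 2 of the controls and the lowest was shIRF7 replicate 2, so that the groups overlapped. The means were 8.10 ± 0.32 in shIRF7 and 8.56 ± 0.83 in the controls (SD, n = 4 each), and their log2 difference was -0.46 (SE 0.41, 95% interval -1.41 to 0.49, limma adjusted p = 0.856). By replicate number it was 0.52 (replicate 1) and -1.64 (replicate 2). Lmnb1 exceeded background on 1 of 4 shIRF7 arrays and 2 of 4 control arrays. The A-type lamin gene Lmna differed by -0.18 (SE 0.26, limma adjusted p = 0.922) and Lmnb2, the other B-type gene, by -0.33 (SE 0.49, limma adjusted p = 0.922).

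**Figure D2:**
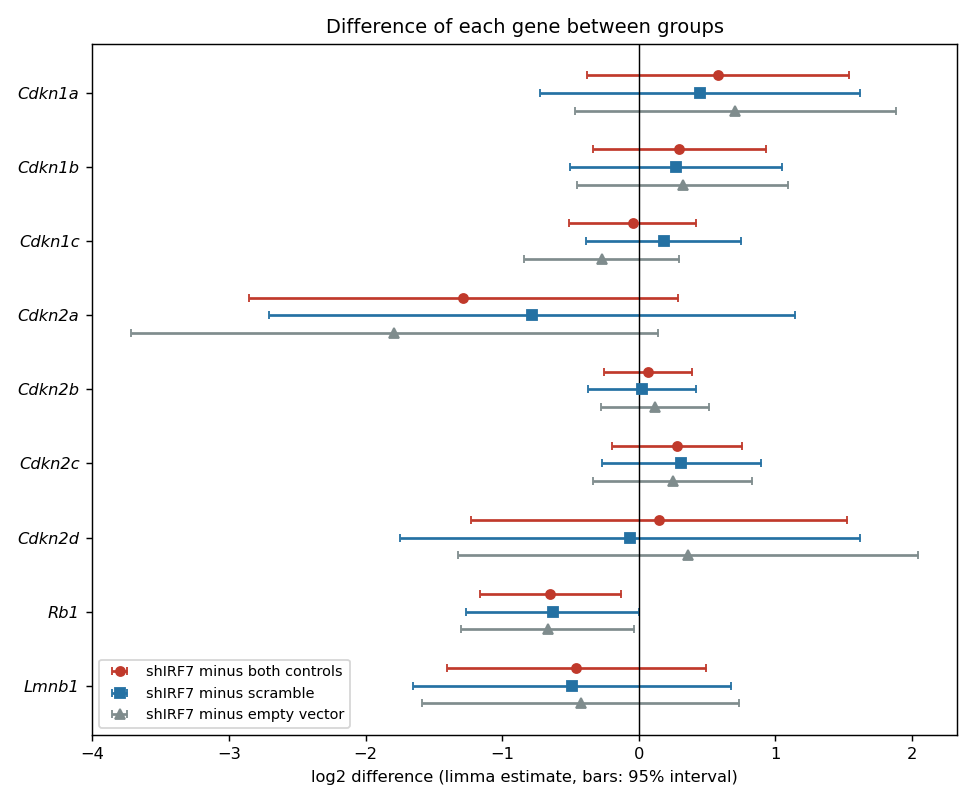
Log2 difference (horizontal axis) of each of the 9 genes for shIRF7 minus both controls, minus scramble and minus empty vector, as limma estimates with 95% intervals. For shIRF7 minus both controls the interval of Rb1 (-1.17 to -0.13) leaves out 0 before adjustment, and those of the other 8 genes hold 0.

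Genes around the members, from 9 lists of cell-cycle and senescence genes, were likewise not called in shIRF7 against both controls: 0 rose and 0 fell in each list, the lowest adjusted p of a list running from 0.173 to 0.886. The median log2 difference was 0.48 over 22 mitosis genes (Top2a, a topoisomerase of dividing cells, differed by 0.06, SE 0.63, limma adjusted p = 0.989) and -0.05 over 22 S phase genes (the replicative helicase subunits Mcm2 and Mcm3 differed by 0.09, SE 1.18, and 0.11, SE 1.04). It was -0.16 over 12 G1 cyclins and kinases, where Ccnd2 differed by -0.64 (SE 0.50) and Ccnd3 by 0.61 (SE 0.45), both D-type cyclins that activate the kinases Ink4 proteins bind. Over 14 regulators of p53 the median was -0.05, with Mdm2, which degrades p53 and is also its target, at 0.33 (SE 0.39, limma adjusted p = 0.904) and its relative Mdm4 at 0.13 (SE 0.21).

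Among 21 regulators of the Ink4 and Arf locus the median was -0.12, with the Polycomb proteins Bmi1 and Cbx2, which repress it, at -0.05 (SE 0.22, limma adjusted p = 0.979) and -0.18 (SE 0.16, limma adjusted p = 0.856). The median was -0.07 over 14 pocket proteins and E2F factors and -0.23 over 11 lamins and nuclear envelope genes. Over 9 genes of Cdkn1b turnover it was 0.22, with the ligase subunits Skp1 at 0.04 (SE 0.16) and Skp2 at 0.56 (SE 0.85). Over 14 other senescence and arrest genes it was -0.13, with the secreted cytokine gene Il6 at -0.96 (SE 0.69, limma adjusted p = 0.804) and Il1a at 0.20 (SE 0.22). Il6 and Il1a lay below background on all 8 arrays, as did Cbx2 and Lmnb2, and 4 of these 14 genes averaged above it.

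Mki67 stood for the proliferation state of each array. Its log2 values were 14.51, 13.67, 13.69 and 13.62 in shIRF7 replicates 1 to 4, against 13.71 and 14.75 in scramble and 10.83 and 14.69 in empty vector. Empty vector replicate 1 lay 2.79 below the next array, 4 arrays sat between 13.62 and 13.71, and 3 between 14.51 and 14.75, so the arrays fall into separate sets of fewer than 6 and no correlation across them is given. The 4 arrays close in Mki67 differed in other cell-cycle genes. The mean log2 values of the mitosis list (Mki67 included) and the S phase list were 11.6 and 10.1 in shIRF7 replicate 4. They were 11.1 and 9.24 in shIRF7 replicate 2, 11.2 and 9.31 in shIRF7 replicate 3, and 10.5 and 9.17 in scramble replicate 1. In shIRF7 against both controls Mki67 differed by 0.38 (SE 0.75, limma adjusted p = 0.951), or by replicate number 2.24 (replicate 1) and -1.05 (replicate 2). In both control groups the array with more Mki67 was replicate 2, so proliferation and replicate number cannot be told apart there. Negative control probe sets differed by replicate number as well, with medians of 4.18 to 4.26 on the 3 arrays numbered 1 and 4.55 to 4.56 on the 3 arrays numbered 2. The part of this background in the relations below was not tested.

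Members were related to Mki67 by a slope in limma, fitted with a mean per group over all genes. A slope reads as the log2 change of a gene per log2 unit of Mki67 among arrays of the same group. Mki67 differed by 3.86 between the empty vector arrays and by 1.04 between the scramble arrays. In shIRF7, replicate 1 exceeded the mean of replicates 2 to 4 by 0.85. All slopes therefore rest mainly on the difference between the 2 empty vector arrays. Of the 9 slopes 3 were positive and 6 negative. Cdkn2d and Lmnb1 passed the threshold with positive slopes, and no member passed it with a negative one. Below, genes said to rise or fall with Mki67 in counts are those that passed. These 2 of 9 members compare with 8.13% of all genes called (1586 of 19504), 5.11% with a positive and 3.02% with a negative slope. Among genes above background on average, 23.3% were called (1545 of 6626), and 1 of the 5 members kept there, Cdkn2d, passed. Over the lists, 20 of 21 mitosis genes and 21 of 22 S phase genes rose with Mki67 and 0 fell, at median slopes of 1.05 and 0.93, against -0.01 over all genes. Aurkb, a kinase of chromosome segregation, had a slope of 1.47 (SE 0.16, limma adjusted p = 0.00679), and Cdc45, of the replicative helicase, 1.59 (SE 0.19, limma adjusted p = 0.00791).

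Cdkn2d had a slope of 0.68 (SE 0.15, 95% interval 0.33 to 1.03, limma adjusted p = 0.0383). Between replicates 2 and 1 of scramble, Cdkn2d was 2.08 higher in replicate 2 where Mki67 was 1.04 higher, and in empty vector it was 2.38 higher where Mki67 was 3.86 higher. In shIRF7, replicate 1 exceeded the mean of replicates 2 to 4 by 0.85 in Mki67 and by 0.19 in Cdkn2d. The change in Cdkn2d per unit of Mki67 was therefore uneven between groups. The call ended without either empty vector array (slope 1.11, adjusted p = 0.292), without shIRF7 replicate 2 (adjusted p = 0.0672), 3 (0.0693) or 4 (0.0581), and with shIRF7 replicates 2 and 3 averaged (0.0655). It held without shIRF7 replicate 1 or either scramble array.

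The 250 bases before the RefSeq start of Cdkn2d (build GRCm38.p6, the C57BL/6J reference and not FVB) are shown because this gene had the largest slope among the members, beside those of Cdkn1b, which did not pass. Capitals mark CCAAT on either strand, a sequence bound by NF-Y and common upstream of cell-cycle genes. They also mark matches to TTTNNCGC on either strand (N is any base), a loose pattern for an E2F site.
Cdkn2d, chr9:21291210-21291459, minus strand: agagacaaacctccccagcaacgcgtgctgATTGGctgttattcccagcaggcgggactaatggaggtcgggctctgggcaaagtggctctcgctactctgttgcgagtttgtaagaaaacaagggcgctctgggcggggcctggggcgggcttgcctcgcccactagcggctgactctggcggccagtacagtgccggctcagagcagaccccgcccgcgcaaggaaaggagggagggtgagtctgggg
Cdkn1b, chr6:134920151-134920400, plus strand: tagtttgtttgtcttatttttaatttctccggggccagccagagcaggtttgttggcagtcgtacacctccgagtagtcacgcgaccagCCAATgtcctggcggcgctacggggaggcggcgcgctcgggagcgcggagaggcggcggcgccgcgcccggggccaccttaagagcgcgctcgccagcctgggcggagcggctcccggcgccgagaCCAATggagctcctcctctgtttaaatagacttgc
Cdkn2d held 1 CCAAT match, 220 bases before the start, and Cdkn1b held 2, at 161 and 35 bases, where 33.8% of 32851 promoter windows hold at least 1. Neither held TTTNNCGC, found in 4.28% of windows. These matches are descriptions of letters, not of binding.

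Lmnb1 had a slope of 0.46 (SE 0.11, 95% interval 0.21 to 0.72, limma adjusted p = 0.0457). It was 1.26 higher in replicate 2 than in replicate 1 of scramble and 1.59 higher in empty vector. In shIRF7 replicate 1 exceeded the mean of the others by 0.35, so that the 3 arrays with the most Mki67 were also the 3 with the most Lmnb1. The slope stayed positive but missed the threshold in each fit that left out 1 array, with slopes of 0.41 to 0.81. Without any 1 shIRF7 array the limma adjusted p was 0.0544 to 0.0749. Leaving out either array of a control pair gives the same fit, because the array left alone carries no slope. Those fits are not separate checks. The largest change came without either empty vector array (slope 0.81), and those fits called 0 of 19504 genes (2943 at an unadjusted limma p under 0.05). Of other nuclear envelope genes, 3 of 11 rose with Mki67 and 0 fell, where 5.11% of all genes rose and 3.02% fell. Of these 11, 8 averaged above background, and 23.3% of all genes above background on average were called. Lbr, the lamin B receptor, had a slope of 0.78 (SE 0.14, limma adjusted p = 0.0219), Tmpo, a lamin-binding protein, 0.47 (SE 0.10, limma adjusted p = 0.0311), and Zmpste24, the protease that matures lamin A, 0.30 (SE 0.07, limma adjusted p = 0.0352).

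**Figure D3:**
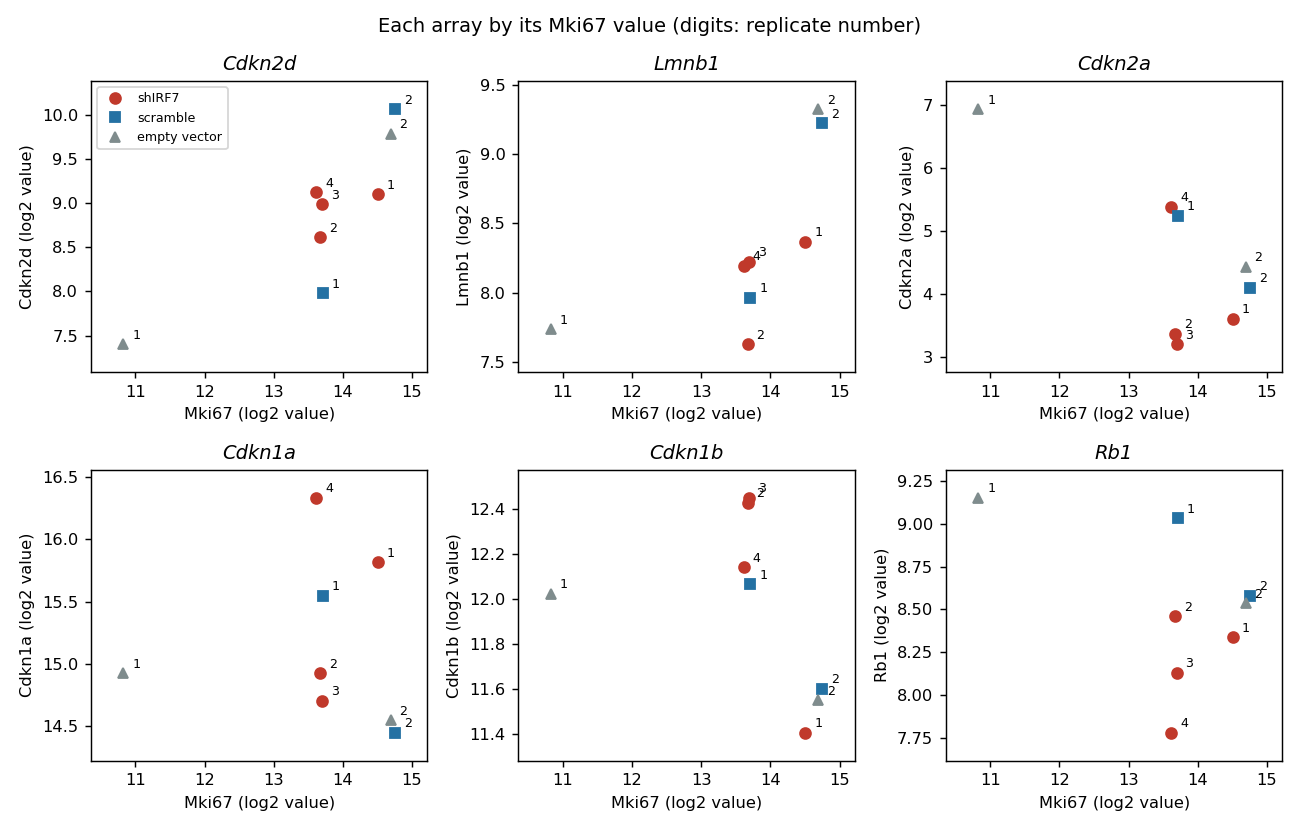
Log2 value of 6 genes (vertical axes, each with its own range) against the log2 value of Mki67 (horizontal axes), 1 point per array, with the replicate number beside it. Empty vector replicate 1 stands apart at a Mki67 of 10.8, where Cdkn2d (7.40) was lowest and Cdkn2a (6.93) highest of all arrays.

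Cdkn2a ran the other way without passing, at a slope of -0.67 (SE 0.22, 95% interval -1.19 to -0.15, limma adjusted p = 0.114). Its highest value, 6.93, was that of empty vector replicate 1, the array with the least Mki67. In both control groups Cdkn2a was lower in replicate 2 (4.10 in scramble, 4.43 in empty vector) than in replicate 1 (5.24 and 6.93). In shIRF7 replicates 2 and 3 had low Cdkn2a (3.37 and 3.20) at a Mki67 close to that of replicate 4 (5.38). The means of the mitosis and S phase lists were higher in shIRF7 replicate 4 than in replicates 2 and 3. Without shIRF7 replicate 4 the slope was -0.62 and passed (limma adjusted p = 0.045), while in the fits without any other array it missed the threshold (adjusted p up to 0.627).

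The promoters of Cdkn2a, for Arf at the upstream start and for p16Ink4a at the downstream start, are shown because they are the windows of members that hold TTTNNCGC (in capitals).
Cdkn2a, upstream start, chr4:89294620-89294869, minus strand: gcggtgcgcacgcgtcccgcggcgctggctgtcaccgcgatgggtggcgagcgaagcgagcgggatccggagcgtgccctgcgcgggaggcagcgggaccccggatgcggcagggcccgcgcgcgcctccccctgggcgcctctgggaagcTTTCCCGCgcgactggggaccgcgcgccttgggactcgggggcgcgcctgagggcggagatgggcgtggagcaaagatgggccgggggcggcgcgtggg
Cdkn2a, downstream start, chr4:89282193-89282442, minus strand: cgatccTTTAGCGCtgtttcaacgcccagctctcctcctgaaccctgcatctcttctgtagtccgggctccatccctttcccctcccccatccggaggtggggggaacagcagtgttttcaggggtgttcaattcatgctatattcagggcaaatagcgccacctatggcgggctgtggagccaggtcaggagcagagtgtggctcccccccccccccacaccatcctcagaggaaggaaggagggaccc
The match lay 99 bases before the upstream start and 244 bases before the downstream one. Of 9 windows of 6 measured members with a window used here, 2 held TTTNNCGC, 2 held CCAAT (Cdkn1b and Cdkn2d), 1 (Cdkn2b) held TTTGAA, found in 16% of windows, and 0 held the interferon-stimulated response element that IRF proteins bind (searched on both strands), which 2.98% of all windows hold. The absence of these letters from a window of 250 bases says nothing about binding by Irf7.

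The remaining members had slopes that did not pass. Cdkn1b had -0.20 (SE 0.11, 95% interval -0.46 to 0.06, limma adjusted p = 0.331), and the 3 arrays with the most Mki67 (shIRF7 replicate 1 and the replicates 2 of both controls) were the 3 with the least Cdkn1b, at 11.4 to 11.6 against 12.0 to 12.5 on the other arrays. Empty vector replicate 1, lowest in Mki67, had an intermediate Cdkn1b of 12.0. Without either empty vector array the slope of Cdkn1b was -0.76 (adjusted p = 0.215). Rb1 had -0.15 (SE 0.10, 95% interval -0.37 to 0.07), Cdkn1a -0.12 (SE 0.20, 95% interval -0.59 to 0.34), and Cdkn2c 0.02 (SE 0.10, 95% interval -0.21 to 0.26). Cdkn1c and Cdkn2b, at background, had -0.10 (SE 0.09) and -0.06 (SE 0.07).

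**Figure D4:**
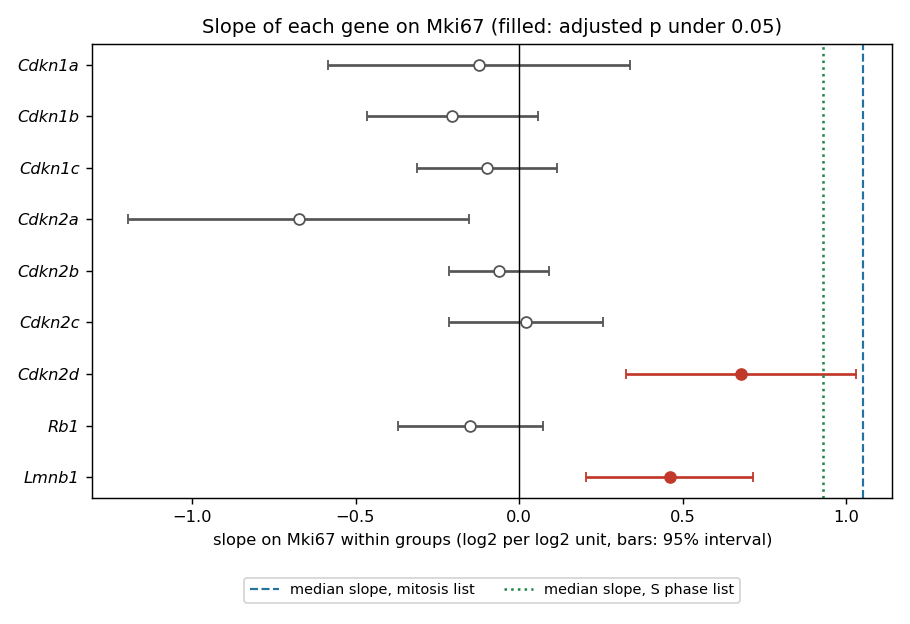
Slope of each gene on Mki67 within groups (horizontal axis, log2 per log2 unit, limma estimate with 95% interval), with the median slopes of the mitosis list (1.05) and the S phase list (0.93) as vertical lines. Cdkn2d (0.68) and Lmnb1 (0.46), filled, passed the threshold.

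Other regulators of the same step rose or fell with Mki67 in part. Over all genes 5.11% rose and 3.02% fell, and 23.3% of genes above background on average were called. List counts near these shares are not particular to a list. Of 12 G1 cyclins and kinases 2 rose, Ccne2 with a slope of 1.12 (SE 0.19, limma adjusted p = 0.0192) and its kinase Cdk2 with 0.92 (SE 0.15, limma adjusted p = 0.0156), and 0 fell. Of 14 pocket proteins and E2F factors 6 rose and 1 fell. The atypical E2F factors E2f8 and E2f7 had slopes of 1.52 (SE 0.15) and 1.28 (SE 0.24), Rbl1 had 0.81 (SE 0.15), and Rbl2 fell with Mki67 at -0.66 (SE 0.09, limma adjusted p = 0.0126). Among 9 genes of Cdkn1b turnover 3 rose: Skp2 with 0.97 (SE 0.22) and its cofactors of the Cks family, Cks1b and Cks2, with 0.67 (SE 0.16) and 0.61 (SE 0.10).

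The same shares (5.11% of all genes rising, 3.02% falling, 23.3% of genes above background called) apply to the lists that follow. Among 21 regulators of the Ink4 and Arf locus 0 rose and 3 fell with Mki67. Kdm6b, a histone demethylase that opposes Polycomb repression of the locus, had a slope of -0.52 (SE 0.09, limma adjusted p = 0.0171). Tbx3, a repressor of Arf, had -0.46 (SE 0.10), and Ets2, an activator of p16Ink4a, -0.41 (SE 0.08). Tbx3 exceeded background on empty vector replicate 1 only (8.27), and Ets2 straddled it (7.06 to 8.71). Of 14 p53 regulators 2 rose, the checkpoint kinases Chek1 (1.10, SE 0.15) and Chek2 (0.61, SE 0.14). Of 14 other senescence and arrest genes 2 fell, the matrix protease Mmp3 (-1.49, SE 0.16) and the growth-arrest gene Gadd45a (-1.14, SE 0.17). Mmp3 was at 11.1 on empty vector replicate 1 and between 4.27 and 6.17 on the other 7 arrays. All of these calls rest on the empty vector pair, since 0 genes passed without either of its arrays.

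With Mki67 as a covariate in the comparison of shIRF7 with both controls, 0 of 9 members passed, where 0.451% of all genes did (88 of 19504). Rb1 then differed by -0.59, Cdkn2a by -1.03, Lmnb1 by -0.63, Cdkn1a by 0.62 and Cdkn2d by -0.11.

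By the likeness of their patterns over the 8 arrays, among genes above background on average, each member had 1 nearest gene by Pearson's r. The r is the highest of 6517 or 6518 genes over 8 arrays, so its size is raised by that choice. The r is a description only, over arrays that fall into separate sets by Mki67. It was 0.996 for Lmnb1 with Fbl, which encodes the nucleolar methyltransferase fibrillarin, 0.989 for Cdkn2d with Adsl, an enzyme of purine synthesis, and 0.988 for Cdkn1b with Rab13, a small GTPase of vesicle traffic. Cdkn2d had an r over 0.9 with 507 of 6517 genes, Lmnb1 with 230 of 6518 and Cdkn1b, whose slope did not pass, with 137 of 6517. The counts were 12 for Cdkn1a, 17 for Cdkn2c and 43 for Rb1. Rb1 was nearest to Jcad (0.972), a junctional protein of endothelial cells, Cdkn1a to Atp2b1 (0.949), a calcium pump, and Cdkn2c to Meis1 (0.945), a homeobox factor. For the members at background, the nearest genes were Tmeff1 for Cdkn2a (0.966), Dpysl3 for Cdkn1c (0.935) and Rpl8 for Cdkn2b (0.858).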

How the data were processed

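RNA of 8 samples was profiled on Affymetrix arrays. The deposited log2 values were made by the authors by RMA, with version 1.4.1.46 of the Expression Console of Affymetrix (per the submitters' processing notes), and the log2 scale was read from the values (1.66 to 18.9). No build of the genome is named in the labels or notes. RMA draws values near background together, which shrinks differences of dim probe sets.

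Of 28846 probe sets, 19572 had 1 gene symbol, 0 had several and 9274 had none. Symbols were updated by gene identifier with RefSeq (GRCm38.p6, 19572 matched). For 55 genes with several probe sets the one with the highest mean was kept, leaving 19505 genes. 0 columns of other samples were present. limma 3.58.1 in R 4.3.3 was fitted over all genes (5 residual and 2.68 prior degrees of freedom; 4 and 3.46 with Mki67 as a term), Benjamini-Hochberg adjusted, and tested on simulated data. The exact permutation test was two-sided over 70 assignments. Precision is limited by the number of arrays.

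The members and the lists (173 of 189 entries measured) were chosen with earlier results of these data known, as were the motifs. Named were all members, Mki67 and Irf7; per list and comparison up to 4 called genes with the largest change, otherwise the first 2 measured as listed; and the nearest gene of each member by Pearson's r, leaving out predicted genes, clones, small RNAs and receptor families. Promoters are RefSeq's, on GRCm38.p6. Alternatives were a filter on dim genes, trend and robust moderation, cyclic loess, probe set means, the replicate block, leaving out arrays, pooled controls, Mki67 as a covariate, other proliferation measures and, added after seeing the data, shIRF7 replicates 2 and 3 averaged. The labels do not say whether the replicate numbers pair the arrays of shIRF7 with those of the controls.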

Additional observations from a re-analysis of the deposited data

Results flagged for a closer look

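Of 22 sets of 4 arrays tested (11 genes in shIRF7 and in the pooled controls), 1 held an array far from the other 3: Mki67 in shIRF7 replicate 1, at 14.5 against 13.6 to 13.7 in the others, its gap to the nearest being 0.916 of the range. Chance alone marks about 1 in 20 such sets.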

How the results depend on the processing

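The count of 0 members called between groups held in every alternative, with every single array left out, and with the replicate block. The main fits called 6 of 19505 genes in shIRF7 against both controls and 1 against scramble. They called 0 in shIRF7 against empty vector and 0 in scramble against empty vector. The count of 0 members therefore had little room to change. The count of all genes called in shIRF7 against both controls, 6, was 3 with dim genes left out, 3 with trend and robust moderation, 0 with the replicate block (691 at an unadjusted limma p under 0.05), 28 with the controls as 1 group, 88 with Mki67 as a covariate, 0 with shIRF7 replicates 2 and 3 averaged (1051 unadjusted), and 0 to 28 with 1 array left out (28 without shIRF7 replicate 1; 0 without either scramble array, shIRF7 replicate 2 or shIRF7 replicate 3, with 1014 to 1473 unadjusted). The slope on Mki67 called 1586 genes, but 0 with the replicate block (3036 unadjusted), 864 with shIRF7 replicates 2 and 3 averaged, 2622 with the S phase mean, 2279 with the mitosis mean, and 0 to 1885 with 1 array left out. It called 2 members, but 1 with dim genes left out (where Lmnb1 was not tested and 23.3% of 6626 genes were called), 1 with trend and robust moderation, 1 with no group means, 0 with the replicate block, 0 with shIRF7 replicates 2 and 3 averaged and 0 to 1 with 1 array left out. The block left 1 residual degree of freedom for slopes, where Cdkn2d had 0.57 (adjusted p = 0.246) and Lmnb1 0.46 (adjusted p = 0.254). Signs turned, none past the threshold, for Cdkn1c with the block (0.038) and Cdkn2d with Mki67 as a covariate (-0.11), and over single arrays left out for Cdkn1c (-0.21 to 0.12), Cdkn2b (-0.0094 to 0.15) and Cdkn2d (-0.45 to 0.74). Slopes turned for Cdkn1a with the block (0.12), for Cdkn2c with cyclic loess (-0.014) and the block (-0.078), and over single arrays left out for Cdkn1c (-0.14 to 0.40), Cdkn2b (-0.071 to 0.084) and Cdkn2c (-0.29 to 0.075). The cause was not tested. Deviations from group means of arrays with the same number correlated at 0.757 between scramble and empty vector, and at -0.31 to -0.161 between shIRF7 and either control, so the numbers were not treated as pairs. Whether arrays of the same number were handled together was not tested. The planned correlations with Mki67 were not run, because its values fall into separate sets. Cdkn1c, Cdkn2a and Cdkn2b lay at background, which limits what their differences can show.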
